A study of Mus musculus with 4 samples.

Results

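Fibroblast growth factors (FGFs) are secreted signals, and 10 genes of their system were followed here: the receptors Fgfr1, Fgfr2, Fgfr3 and Fgfrl1, the ligands Fgf1, Fgf2, Fgf5, Fgf7 and Fgf18, and the carrier protein gene Fgfbp1. They were taken by symbol from 24084 gene rows, and all 10 were found. The series holds 4 RNA sequencing libraries of hair follicle stem cells sorted from mouse skin epidermis: WT A and WT C, and Foxp3-DTR C and Foxp3-DTR D. A pair of values for a group below is always in that order. All mice were C57BL/6, aged 7 to 10 weeks, and were sampled 4 days after depilation of the back, which starts a new round of hair growth. All received diphtheria toxin into the peritoneum at 15 ng/g, the WT mice included. In Foxp3-DTR mice the toxin receptor is made in cells that express Foxp3, the regulatory T cells (Treg), so the toxin depletes them. The comparison asks how the stem cells' transcripts differ when these T cells are missing.

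FGF ligands bind receptor tyrosine kinases together with heparan sulfate, a sulfated sugar chain on cell surfaces and matrix. The receptors signal through Ras and MAP kinases and through PI3K, and the signal is damped by feedback inhibitors such as the Sprouty proteins. In the hair follicle, Fgf18 from the resting bulge is known to hold stem cells in the resting phase. Fgf7 and Fgf10 come mainly from the dermal papilla, and Fgf5 helps to end the growth phase. Counts per gene do not separate the splice forms of the receptors, which differ in the ligands they bind.

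Gene counts per library ranged from 13911765 to 15923154, so a gene with 0 counts could still stand at up to 0.184 to 0.212 CPM (counts scaled with TMM factors to libraries of the same size). That limit covers counting error only. All 10 fixed bulge and basal markers, such as Cd34, Krt15, Sox9 and Lgr5, were present and tested, and their values by group are given at the end. The groups also differ in sex-linked genes. Xist stood at 860 and 2481 CPM in WT and at 1.86 and 0 CPM in Foxp3-DTR, and 4 Y-linked genes had counts only in Foxp3-DTR, where they summed to 319 and 259 CPM. Genotype, sex and the titles' codes DEP2 (WT) and DEP3 (Foxp3-DTR) cannot be told apart. Whether the libraries of a group are from separate animals is not stated in the labels, so the p-values reflect the spread between libraries, which may be technical.

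No FGF ligand or receptor passed the test over all genes, made with edgeR (quasi-likelihood) and adjusted by Benjamini-Hochberg. Of the 7 members that cleared the filter on low counts, 0 had an adjusted p under 0.05. Over the 12920 genes tested the share was 1.25%, with 0.82% higher and 0.426% lower in Foxp3-DTR. At an unadjusted p under 0.05 there were 2, Fgf18 and Fgf1, both higher in Foxp3-DTR, beside 14.6% of all genes at that level, 6.76% higher and 7.89% lower. Limma-voom called 0 members, beside 0.72% of all genes, with 2 at an unadjusted p under 0.05. DESeq2 called 2 of the 8 members to which it gave an adjusted p, the same Fgf18 and Fgf1, both higher. It called 7.36% of all 13619 such genes, 3.59% higher and 3.77% lower. The median log2 fold change of the 7 tested members was 0.31, beside -0.014 over all genes tested. The 2 groups did not overlap for 4 of these 7, Fgf18, Fgf1 and Fgfr3 above and Fgfr2 below WT, and for 45.7% of all tested genes, 22% above and 23.7% below WT.

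**Figure D1:**
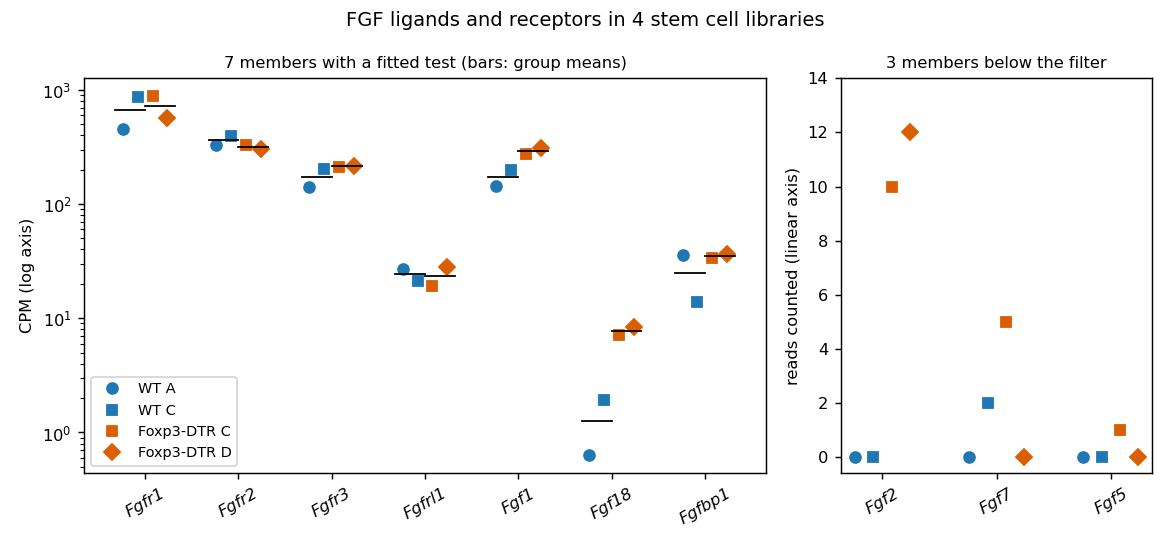
Levels of the 10 members in each library, in CPM on a log axis for the 7 tested members (black bars are group means) and as reads counted on a linear axis for the 3 below the filter. Fgf18 and Fgf1 are higher in both Foxp3-DTR libraries than in both WT libraries, and Fgf2 has counts in the Foxp3-DTR libraries only.

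Compared per length, as CPM per kilobase of exon, the receptor Fgfr1 was the most abundant member, with a mean of 70.1 over the 4 libraries. The ligand Fgf1 followed at 42.4, then Fgfr2 at 32.8 and Fgfr3 at 26.9 CPM per kilobase. The ranges over the 4 libraries overlapped for each neighbouring pair among these 4 genes. Within a library, Fgfr1 was the highest of the 4 in every case and Fgf1 was above Fgfr3 in every case, while the place of Fgfr2 changed between libraries. All 4 stood clear of Fgfbp1, at 13.2, whose highest library, at 16.0 CPM per kilobase, was below the lowest value of Fgfr3, at 19.6. Fgfrl1 had a mean of 8.61 and Fgf18 of 3.82 CPM per kilobase, and each overlapped the gene before it. Fgf2, Fgf7 and Fgf5 reached at most 0.125 CPM per kilobase, in Fgf2. With the longest transcript as length, Fgf1 and Fgfr2 changed places, at 58.1 and 76.5. By that length Fgf1 was above Fgfr2 in Foxp3-DTR D only. By union exon length Fgf1 was below Fgfr2 in both WT libraries and above it in both Foxp3-DTR libraries. In WT, Fgf1 had 26.3 and 36.4 CPM per kilobase and Fgfr2 had 32.1 and 38.3. In Foxp3-DTR, Fgf1 had 50.6 and 56.2 CPM per kilobase and Fgfr2 had 31.6 and 29.2.

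Among the ligands, Fgf18 showed the largest difference of the 7 tested members. The gene lies on chromosome 11, 33116970 to 33147400 (GRCm38.p6, RefSeq). It had 9 and 31 reads in the WT libraries and 108 and 119 reads in the Foxp3-DTR libraries. In CPM these were 0.633 and 1.91 in WT and 7.16 and 8.43 in Foxp3-DTR. Both Foxp3-DTR libraries were above both WT libraries, and the WT libraries themselves differed, on few reads. The group means were 1.27 ± 0.900 and 7.79 ± 0.897 CPM (SD, n = 2 per group), a log2 fold change of 2.60 ± 0.68 (SE) with an unadjusted 95% interval from 0.97 to 4.24. Its edgeR adjusted p was 0.128, so it did not pass. Over the alternatives the adjusted p ran from 0.00937 with DESeq2 to 0.328 without Foxp3-DTR C, and the log2 fold change from 2.04 to 3.61.

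Fgf1, which binds all the FGF receptors and lacks the usual export signal, was the most abundant ligand per length in all 4 libraries. It lies on chromosome 18, 38838672 to 38929470. Its level was 144 and 199 CPM in WT and 276 and 307 CPM in Foxp3-DTR. The groups did not overlap. The means were 171 ± 38.9 and 292 ± 21.7 CPM (SD, n = 2 per group), a log2 fold change of 0.77 ± 0.22 (SE) with an unadjusted 95% interval from 0.25 to 1.29. The edgeR adjusted p was 0.153, and over the alternatives it ran from 0.0143 with a covariate for suprabasal markers to 0.490 without Foxp3-DTR C. That covariate, the summed suprabasal keratinocyte signal described below, was added after the data were seen and leaves 1 residual degree of freedom among the 4 libraries. With it Fgf18 and Fgf1 both passed, at edgeR adjusted p of 0.0201 and 0.0143, among 1465 genes called in all, 11.3% of those tested.

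The other 3 ligands were too low for the filter. Fgf2, a close relative of Fgf1 (chromosome 3, 37348477 to 37410106), had 0 reads in both WT libraries and 10 and 12 reads in Foxp3-DTR. Taken over the group, the Foxp3-DTR level was 7.65 times a WT floor of 3 counts. This ratio leaves out the counting error of the Foxp3-DTR reads, so it is not a lower limit. Without the filter its edgeR adjusted p was 0.327, with DESeq2 0.223. Of its exons, 13.2% by length overlap those of Nudt6 on the opposite strand and of Gm43439. Nudt6 had 55 and 111 reads in WT and 166 and 126 reads in Foxp3-DTR. The counter's strand setting is not given, so how reads in that overlap were assigned cannot be told. Fgf7, which acts on epithelium through Fgfr2 (chromosome 2, 126034658 to 126091185), had 0 and 2 reads in WT and 5 and 0 reads in Foxp3-DTR. The group ratio, Foxp3-DTR over WT, was 2.61 with an exact 95% counting interval from 0.427 to 27.4, so no difference was detectable at this depth. Fgf5 (chromosome 5, 98254184 to 98277033) had 1 read, in Foxp3-DTR C, and 0 elsewhere.

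The receptors differed less between groups than the ligands Fgf18 and Fgf1, though the difference between receptors and ligands was not tested. Fgfr1 (chromosome 8, 25518759 to 25575718) had 455 and 869 CPM in the WT libraries and 876 and 568 CPM in the Foxp3-DTR libraries. Each group held a high and a low library, and the groups overlapped. Its log2 fold change was 0.13 ± 0.37 (SE), with a 95% interval from -0.77 to 1.02 and an edgeR adjusted p of 0.926. Its sign changed to -0.26 when WT A was left out, and to -0.22 when Foxp3-DTR C was.

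The low Fgfr1 libraries were the 2 with the most suprabasal keratinocyte transcripts. The 7 suprabasal markers, such as Krt1 and Krt10, summed to 8269 CPM in WT A, where Fgfr1 was at 455 CPM, and to 7030 CPM in Foxp3-DTR D, where it was at 568 CPM. Their sums were 987 and 1204 CPM in WT C and Foxp3-DTR C, where Fgfr1 was at 869 and 876 CPM. In bulk libraries fewer cells of a type and less RNA per cell cannot be told apart. With the suprabasal covariate the Fgfr1 log2 fold change was 0.17 ± 0.15 (SE).

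Fgfr2, whose epithelial splice form receives Fgf7 and Fgf10 (chromosome 7, 130162451 to 130266808), had 331 and 396 CPM in WT. In Foxp3-DTR it had 326 and 301 CPM, just below both WT libraries. The log2 fold change was -0.21 ± 0.19 (SE), with a 95% interval from -0.67 to 0.24 and an edgeR adjusted p of 0.706. For Fgfr3, best known as a brake on bone growth (chromosome 5, 33721724 to 33737068), the levels were 141 and 204 CPM in WT and 210 and 217 CPM in Foxp3-DTR. The groups did not overlap, but WT C lay close to both Foxp3-DTR libraries. Its log2 fold change was 0.31 ± 0.22 (SE), with a 95% interval from -0.22 to 0.85 and an edgeR adjusted p of 0.617. Of Fgfr3's exons, 13.9% by length overlap a transcript annotated on the other strand, G630022F23Rik.

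Fgfrl1, a receptor without the kinase domain (chromosome 5, 108694229 to 108706950), had 27.2 and 21.3 CPM in WT and 19.3 and 28.0 CPM in Foxp3-DTR. The WT values lay between the Foxp3-DTR values, with a log2 fold change of -0.039 ± 0.29 (SE) and a 95% interval from -0.74 to 0.66. Leaving out WT A turned the sign, to 0.16, as did leaving out Foxp3-DTR C, to 0.21. Fgfr4, the remaining kinase receptor and no member here, had 0 and 5 reads in WT and 10 and 0 reads in Foxp3-DTR.

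Expressed as shares of the 4 kinase receptors per length, Fgfr1 led in every library. Its share was 47.1% and 56.8% in WT and 59.2% and 49.2% in Foxp3-DTR. Fgfr2 made up 32.8% and 24.7% in WT and 21.1% and 24.9% in Foxp3-DTR. Fgfr3 made up 20.1% and 18.4% in WT and 19.6% and 25.9% in Foxp3-DTR. The Fgfr1 share differed by 2.19 percentage points between group means, against SDs of 6.86 in WT and 7.08 in Foxp3-DTR (n = 2 per group). Leaving out a library moved that difference between -2.82 and 7.20 percentage points, so it had no settled sign.

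**Figure D2:**
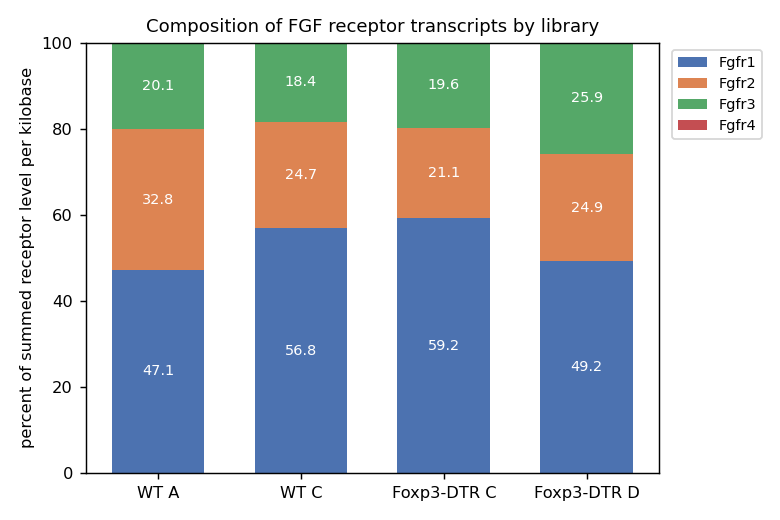
Share of Fgfr1, Fgfr2, Fgfr3 and Fgfr4 in their summed CPM per kilobase, as stacked bars for each library, with the percent written in each block. Fgfr1 is the largest block in all 4 libraries, at 47.1% to 59.2%, and Fgfr4 is too small to be seen.

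Fgfbp1, which releases FGFs from heparan sulfate (chromosome 5, 43978858 to 43981828), had 35.7 and 13.8 CPM in WT. Both Foxp3-DTR libraries, at 33.4 and 36.2 CPM, were close to WT A, so WT C alone was low. The log2 fold change was 0.49 ± 0.44 (SE), with a 95% interval from -0.59 to 1.58 and an edgeR adjusted p of 0.711. Without WT C it was -0.035, and without WT A 1.35.

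**Figure D3:**
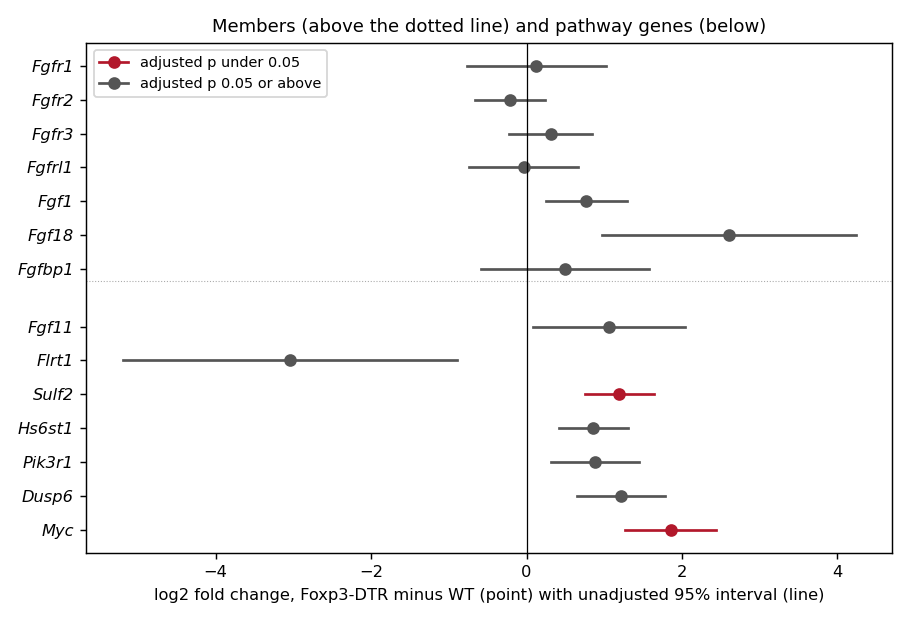
Log2 fold change, Foxp3-DTR minus WT, with the unadjusted 95% interval, for the 7 tested members above the dotted line and 7 other pathway genes below it. The intervals of Fgf18 and Fgf1 lie above 0 while their adjusted p stay over the threshold, and of the genes drawn Sulf2 and Myc pass it (red).

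The rest of the pathway was read from 4 lists. Of 24 other FGF ligands, receptors, carriers and coreceptors, 14 had 0 counts in all 4 libraries, among them Fgf10, the dermal papilla ligand. Of the 5 tested, 0 passed, beside 1.25% of all genes. At an unadjusted p under 0.05, 1 was higher and 1 lower, beside 6.76% and 7.89% of all genes, and the median log2 fold change was -0.57. Of the 6 with an adjusted p from DESeq2 it called 1 lower, Flrt1, beside 3.77% of all genes, and limma-voom called none. Flrt1, a membrane protein that binds FGF receptors, had the smallest p of the list. It stood at 5.56 and 5.47 CPM in WT and at 0.199 and 1.13 CPM in Foxp3-DTR. These came from 79 and 89 reads in WT and 3 and 16 reads in Foxp3-DTR. In Foxp3-DTR C Flrt1 lay at the limit where a gene with 0 counts could still stand. Its log2 fold change was -3.04 ± 0.90 (SE) and the edgeR adjusted p 0.170. DESeq2 gave an adjusted p of 0.0242 and edgeR with the suprabasal covariate 0.0331. The size of the difference rested on Foxp3-DTR C: its log2 fold change was -2.27 with that library left out and -4.73, at an edgeR adjusted p of 0.0504, when Foxp3-DTR D was left out instead. Fgf11, which stays inside the cell, was the most abundant ligand family gene per length outside the members, at 3.60 CPM per kilobase. It stood at 5.77 and 8.42 CPM in WT and 18.3 and 11.3 CPM in Foxp3-DTR, with a log2 fold change of 1.06 ± 0.41 (SE) and an edgeR adjusted p of 0.296.

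Heparan sulfate carriers and enzymes had 22 tested genes, of which 1 rose and 0 fell, beside 0.82% and 0.426% of all genes. The list's median was -0.078 on the log2 scale. At an unadjusted p under 0.05, 2 were higher and 2 lower, beside 6.76% and 7.89% of all genes. DESeq2 called 2 of 22 higher and 0 lower, beside 3.59% and 3.77% of all genes, and limma-voom called none. The gene that rose in edgeR was Sulf2, a secreted enzyme that removes sulfate groups from heparan sulfate. It stood at 74.7 and 79.8 CPM in WT and at 193 and 161 CPM in Foxp3-DTR, with no overlap. Its log2 fold change was 1.20 ± 0.19 (SE) and the edgeR adjusted p 0.0449. The call was close to the threshold: the adjusted p was 0.0581 without WT A, 0.206 without Foxp3-DTR C and 0.0546 with limma-voom, and 3.06e-06 with DESeq2. Hs6st1, an enzyme that adds sulfate groups and was named after its values were seen, stood at 67.8 and 59.3 CPM in WT and 123 and 107 CPM in Foxp3-DTR. Its edgeR adjusted p was 0.0823, with a range from 0.00435 to 0.513 over the alternatives. The cell surface carriers Sdc1 and Sdc4 were likewise named with their values in view. They differed by -0.46 ± 0.19 and 0.28 ± 0.19 (SE) on the log2 scale and did not pass. Gpc6, another carrier named in this way, had the smallest p among the lower genes of the list. It stood at 87.9 and 102 CPM in WT and 60.4 and 62.5 CPM in Foxp3-DTR. Its log2 fold change was -0.63 ± 0.18 (SE). The edgeR adjusted p was 0.159, and 0.0213 with the suprabasal covariate.

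Of the 22 signal transducers tested, 0 passed, beside 1.25% of all genes, and the median log2 fold change was 0.11. At an unadjusted p under 0.05 there was 1, beside 14.6% of all genes. DESeq2 called the same gene higher, 1 of 22 beside 3.59% of all genes, and limma-voom none. It was Pik3r1, a regulatory subunit of PI3K, at 342 and 490 CPM in WT and 722 and 806 CPM in Foxp3-DTR. Its log2 fold change was 0.88 ± 0.24 (SE) and an edgeR adjusted p of 0.138, and it passed without WT C, at 0.0457.

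Feedback inhibitors and target genes had 18 tested genes, of which 1 rose and 0 fell, beside 0.82% and 0.426% of all genes, and a median of 0.40 on the log2 scale. At an unadjusted p under 0.05, 4 were higher and 2 lower, beside 6.76% and 7.89% of all genes. Of the 19 genes to which it gave an adjusted p, DESeq2 called 2 higher, Myc and Dusp6, and 1 lower, Ccnd1. Over all genes it called 3.59% higher and 3.77% lower. Limma-voom called Myc alone, beside 0.72% of all genes. Myc, a growth regulator that many pathways besides FGF switch on, rose from 52.5 and 64.7 CPM in WT to 251 and 173 CPM in Foxp3-DTR. The log2 fold change was 1.86 ± 0.24 (SE) and the edgeR adjusted p 0.0323, and 0.0512 without Foxp3-DTR C. Dusp6, a phosphatase that switches off the MAP kinase ERK, was named after its values were seen. It stood at 45.5 and 64.9 CPM in WT and 142 and 116 CPM in Foxp3-DTR, with a log2 fold change of 1.22 ± 0.24 (SE). Its edgeR adjusted p was 0.0678, and over the alternatives it ran from 0.000252 to 0.258. Ccnd1, a cyclin that drives entry into the cell cycle and was likewise chosen with its values in view, differed the other way. Its level was 487 and 357 CPM in WT and 82.3 and 192 CPM in Foxp3-DTR, with no overlap. The log2 fold change was -1.62 ± 0.43 (SE) and the edgeR adjusted p 0.157. Ccnd1 passed with DESeq2, at an adjusted p of 0.000637, and in edgeR with the suprabasal covariate, at 0.00583. Among the other fits to all 4 libraries, it did not pass with RLE factors, limma-voom or no filter. Without Foxp3-DTR D its log2 fold change was -2.35. Of the Sprouty inhibitors 0 of 4 passed: Spry1, Spry2, Spry3 and Spry4 had log2 fold changes of 0.0071, 0.14, -2.75 and 0.998, Spry3 on at most 28 reads.

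**Figure D4:**
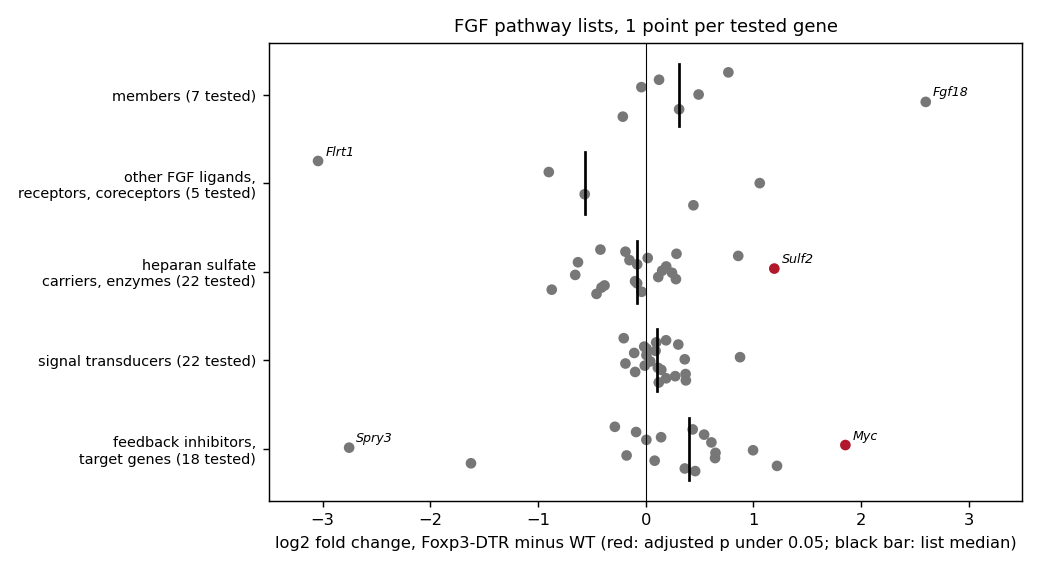
Log2 fold change, Foxp3-DTR minus WT, of each tested gene in the members and in 4 further pathway lists, with the list median as a black bar. Sulf2 and Myc (red) pass the threshold, and Fgf18 lies farthest to the right without passing.

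Markers of other cells and of cycling differed between the libraries, in part along with the groups. The 12 fibroblast and dermal papilla genes summed to 56.4 and 80.8 CPM in WT and to 37.3 and 44.6 CPM in Foxp3-DTR, with Lum, Dpt, Mfap5 and Sox2 at 0 counts in all libraries. These sums rest on Col1a1, Col1a2 and Crabp1, each lower in both Foxp3-DTR libraries than in both WT libraries. Of the 4 tested, 0 passed and 2 were lower at an unadjusted p under 0.05, beside 7.89% of all tested genes. Pdgfra differed the other way, at 0.915 and 1.60 CPM in WT and 3.45 and 2.41 CPM in Foxp3-DTR. Dcn, below the filter, was also higher in both Foxp3-DTR libraries. The 9 leukocyte genes in the table summed to 8.72 and 1.54 CPM in WT and to 1.19 and 0 CPM in Foxp3-DTR, with Cd4 at 0. The 6 melanocyte genes summed to 96.0 and 140 CPM in WT and 117 and 138 CPM in Foxp3-DTR, most of it Mitf, which overlapped between groups. Pmel, a pigment granule protein, stood at 2.81 and 2.27 CPM in WT and 6.03 and 8.36 CPM in Foxp3-DTR. Its log2 fold change was 1.497 ± 0.52 (SE) and the edgeR adjusted p 0.237. Tyrp1, Tyr and Mlana were also above WT in both Foxp3-DTR libraries and Dct was not. Tyr had 8 and 0 reads in WT and 18 and 18 reads in Foxp3-DTR. Mlana, below the filter, had 0 and 5 reads in WT and 14 and 8 reads in Foxp3-DTR. Of the 5 melanocyte genes tested 0 passed, and 3 were above WT without overlap, beside 22% of all tested genes. At an unadjusted p under 0.05, 1 was higher, beside 6.76% of all tested genes. The 5 endothelial genes summed to at most 1.66 CPM. The 6 sebaceous gland genes summed to 1837 CPM in WT A and to between 232 and 385 CPM in the others. The 6 cycling markers, such as Mki67 and Top2a, summed to 1505 and 1006 CPM in WT and to 290 and 448 CPM in Foxp3-DTR. Of these 6, Mcm6, a part of the replicative helicase, fell, with a log2 fold change of -1.13 ± 0.18 (SE) and an edgeR adjusted p of 0.0451. All 6 were lower without overlap and at an unadjusted p under 0.05, beside 23.7% and 7.89% of all tested genes. Of the 10 bulge and basal markers 0 passed, and their median log2 fold change was -0.14. At an unadjusted p under 0.05, Cd34 and Itga6 were higher, by 0.63 ± 0.22 and 0.70 ± 0.21 (SE) on the log2 scale. Lhx2, a transcription factor of the bulge, was lower at that level, with a log2 fold change of -0.88 ± 0.18 (SE) and an edgeR adjusted p of 0.0778. The groups did not overlap for 3 of the 10 above WT and for 4 below, beside 22% and 23.7% of all tested genes. The part of these differences in the FGF values was not tested.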

How the data were processed

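The deposited table holds raw counts, which the authors made as whole reads assigned to each gene symbol, with a column for each library. The submitters' processing notes name HTSeq 0.6.1, TopHat2 2.0.12, SAMtools 0.1.19.0, Bowtie2 2.1.0.0 and CASAVA 1.8.2, and the build mm10. Per the labels' protocols the library kit was stranded and selected mRNA. Annotation and strand setting of the counter: not given in the sources used here. The 5 special rows of the counter, 62.0% to 70.1% of the counts in a library, were left out.

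The groups were compared with edgeR 4.0.16 in R 4.3.3 (TMM, filterByExpr, robust glmQLFit, glmQLFTest), adjusting p-values over 12920 genes at a threshold of 0.05. Intervals of fold changes use the test's SE and degrees of freedom and are not adjusted. Lengths are unions of exons in GENCODE M21 (GRCm38), and locations are RefSeq's on GRCm38.p6, the assembly behind mm10. Alternatives used RLE factors, DESeq2 1.42.0, limma-voom (limma 3.58.1), no filter and each library left out. Scripts were tested on simulated counts. Members and lists were chosen with earlier results of these data known. The text names all members and, per list, up to 3 passing genes in each direction with the smallest p, or else the gene with the smallest p. Any gene named beyond that rule was chosen with its values in view. The planned comparison of protein sequences was not made.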

Additional observations from a re-analysis of the deposited data

How the results depend on the processing

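Over all settings the members' call count was 0 except with DESeq2 and with the suprabasal covariate, 2 each, which were Fgf18 and Fgf1. All genes called were 161 in the reported fit, 1002 with DESeq2, 93 with limma-voom, 529 with no filter, 1465 with the covariate, and 80 to 423 when a library was left out. Pathway genes called were 2 of 67 tested in the reported fit, beside 1.25% of all genes, and 1 of 67 with limma-voom, beside 0.72%. With DESeq2 they were 7 of 75 given a p-value, beside 1002 of 15688 genes. With no filter they were 4 of 75, beside 529 of 15688 genes. With the covariate they were 9 of 67, beside 11.3% of all genes. With a library left out, the log2 fold change of Fgfr1 ran from -0.26 (without WT A) to 0.67 (without WT C), also turning at -0.22 without Foxp3-DTR C. That of Fgfrl1 ran from -0.32 (without Foxp3-DTR D) to 0.21 (without Foxp3-DTR C), also turning at 0.16 without WT A. That of Fgfbp1 ran from -0.035 (without WT C) to 1.35 (without WT A). The sign turned for these 3 genes and for no other of the 14 genes followed through the settings. With longest transcripts 2 of the 10 members changed rank in level. The cause of these changes was not tested. No paired analysis was possible because the groups share only the replicate letter C. A group left with 1 library was assumed to vary like the other. Members under 10 reads a library, Fgf5 and Fgf7, are limited by depth.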

Other observations

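Outside the 10 members, Fgf13, which acts inside the cell, had 9 and 19 reads in WT and 4 and 7 in Foxp3-DTR. The ratio of Foxp3-DTR over WT was 0.41, with an exact 95% counting interval from 0.184 to 0.849. Fgf13 lies on chromosome X, 59062139 to 59585572, and sex and genotype cannot be told apart here. Fgf20 had 8 reads, all in Foxp3-DTR C. Fgfbp3, a second FGF carrier protein, stood at 3.87 and 3.63 CPM in WT and 1.33 and 2.69 CPM in Foxp3-DTR, with an edgeR adjusted p of 0.633. Intervals from counts cover counting error only.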
